A study of Mus musculus with 12 samples.

Results

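The Ets1 by Ets2 interaction was measured gene by gene in mouse aortic endothelial cells as the difference that Ets2 loss made in cells without Ets1 minus the difference it made in cells with Ets1: (Ets1/2 null minus Ets1 null) minus (Ets2 null minus wild type), on the log2 scale. It was described over the 3243 genes whose 2 brightest microarray probe sets agreed, out of 11015 genes named on the arrays and 4785 with at least 2 probe sets. Probe sets agreed where each null's difference from wild type was within 1 log2 unit between them. Endothelial cells came from the aorta of mice aged 4 weeks, were grown in culture and were infected with a lentivirus, and their total RNA was read on Affymetrix arrays. Wild-type cells were Ets1+/+; Ets2+/+ with a virus carrying egfp alone (3 arrays). Ets1 null cells were Ets1-/-; Ets2fl/fl with the egfp virus (3 arrays). Ets2 null cells were Ets1+/+; Ets2fl/fl with a virus carrying egfp and Cre (3 arrays), and Ets1/2 null cells were Ets1-/-; Ets2fl/fl with that virus (2 independent arrays). Cre therefore went with Ets2 loss in both backgrounds and its own effect cannot be told apart from Ets2 loss, and Ets1 null cells carried a floxed Ets2 that wild-type cells lacked. For the single nulls, the description text calls the lost gene wild type, and titles and genotypes were followed instead. Replicates are called biological in the labels, which do not say whether each came from an animal of its own, so p-values measure the spread between these arrays.

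Ets1 and Ets2 are transcription factors of the ETS family, whose members bind DNA through a shared domain at sites with a GGAA core. Both are targets of the Ras and ERK kinase cascade, both are expressed in blood vessels, and mice lacking both die before birth with defects of the vasculature, which is why they are studied as partners that may stand in for each other. In a factorial design, an interaction of 0 means that the differences of the single losses add up in the double loss. A gene that differs only when both factors are lost, or that responds to the loss of one factor in opposite ways with and without the other, has an interaction away from 0.

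The targeted genes were read first. Ets1, by its brightest probe set, had wild-type values of 1.21, 0.72 and 0.95, Ets1 null values of -0.82, -0.38 and 0.02, Ets2 null values of 0.43, 0.49 and 0.8, and labelled double null values of 1.72 and 1.99, where every value is log2 and relative to the median of its array. The Ets1 null arrays lay below all others, whereas both arrays labelled double null lay above all wild-type arrays. The second brightest Ets1 probe set showed the same order, with an interaction of 2.29 ± 0.34 (SE). Another read lower in the arrays labelled double null (-1.81 and -1.24) than in any wild-type array (-0.35, -0.34 and -0.29), with an interaction of -0.14 ± 0.35. The last had wild-type values of -0.83, -0.9 and -0.64, Ets1 null values of -2.18, -1.22 and -1.21, and labelled double null values of -0.9 and -0.31. Its interaction was 1.55 ± 0.41. Ets2, by its brightest probe set, had wild-type values of 0.68, 0.89 and 1.59, Ets1 null values of 1.15, 1.23 and 1.39, Ets2 null values of 0.55, 0.29 and 1.05, and labelled double null values of 2.72 and 1.34. Ets2 null overlapped wild type (difference -0.42 ± 0.37, adjusted p = 0.554), and the first array labelled double null was the highest of all. The second Ets2 probe set had wild-type values of -1.44, -1.2 and -0.94 and Ets2 null values of -1.32, -1.46 and -1.26. Its labelled double null values were 0.06 and -1.26. Where the probes lie relative to the deleted parts of either gene is not given in the sources used here, and a probe outside them checks nothing. Ets1 signal thus went against the label of these 2 arrays by the 2 brightest probe sets, but lay below wild type by another. By the last it showed no loss against wild type (difference 0.18 ± 0.3). These arrays are called "labelled double null" throughout, and every interaction below rests on them. Where an Ets2 difference in cells without Ets1 is named below, it is without Ets1 by the label only.

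The arrays differed in other ways that bear on the interaction. Deposited array medians were 9.05 to 9.15 in 9 arrays and 8.29 and 8.3 in the labelled double null, and each array was therefore centred on its median over all probe sets. Whether all arrays were normalized together is not given in the labels, and differences that involve the labelled double null, including the share of probe sets called in them, rest on this centring. The third deposited column of that group equalled the mean of the other 2 in 20521 of 20523 probe sets (within 1e-06) and was left out. Sex genes read as male in wild-type array 1 and in every Ets2 null array and as female in the other 7, so the Ets2 difference in cells with Ets1 partly runs along sex. Ets2 null array 3 had a mean of -1.76 over 43 cell cycle genes, against 1.57 to 2.26 in the other arrays of wild type and single nulls and 1.42 and 0.37 in the labelled double null. Wild-type array 3 had a mean of -0.43 over 23 inflammation and adhesion genes, against 1.75 and 1.2 in the other wild-type arrays. Of 16 endothelial marker genes Cd34, Eng, Fabp4, Flt1 and Kdr were used here, and the others were not analysed. The mean of these 5 was lowest in Ets1 null (-1.93 to -1.08). It was -0.26 to 0.77 in wild type, 0.38 to 1.24 in Ets2 null, and 0.02 and -1.25 in the labelled double null. The low mean in Ets1 null was not shared by all 5. Ets1 null minus wild type was -3.45 for Fabp4, -3.3 for Cd34 and -1.27 for Eng, but -0.26 for Kdr and 0.15 for Flt1.

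An interaction was called in 217 agreeing genes, and in most of them it was positive. In those the Ets2 difference was higher in cells without Ets1 than in cells with it. All calls rest on the arrays labelled double null. Dependence on Ets1 and a difference particular to those arrays cannot be told apart. A gene was called where both of its probe sets had a Benjamini-Hochberg adjusted p under 0.05 (limma, two-sided, over all probe sets) with the same sign. Among the agreeing genes 144 were called with a positive interaction (4.44%) and 73 with a negative one (2.25%). Both probe sets were called in 3.39% (positive) and 2.17% (negative) of all 4785 genes with at least 2 probe sets. By the brightest probe set alone, 9.84% of the 11015 genes were called positive and 6.45% negative. The median interaction was 0.3 among agreeing genes (interquartile range -0.16 to 0.72) and 0.25 over all genes, with a median SE of 0.32.

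The counts moved with single arrays and with sex. The 144 positive calls became 92 with wild-type array 1 left out, 70 or 67 with Ets1 null array 2 or 3 left out, and 74 or 77 with Ets2 null array 1 or 2 left out, each a fit on fewer arrays. The 73 negative calls became 47 without Ets1 null array 2. A fit with sex as a term (the male term), which rests on 1 male array outside Ets2 null, made 44 positive and 40 negative; the part of sex in the rest was not tested beyond this term.

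The sign balance also depended on the centring. Positive calls were 60.4% of the 1795 genes called by the brightest probe set under the centring used, 47.1% after quantile normalization, 52.1% when arrays were centred on the brightest probe sets alone, and 4.77% with no centring. With no centring the median of all genes moved to -0.57, and 22 agreeing genes were called positive and 559 negative. After quantile normalization the counts were 88 and 89, with an all-gene median of 0.13. Differences given below are on the centred scale, and the all-gene median of 0.25 belongs beside each of them.

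**Figure D1:**
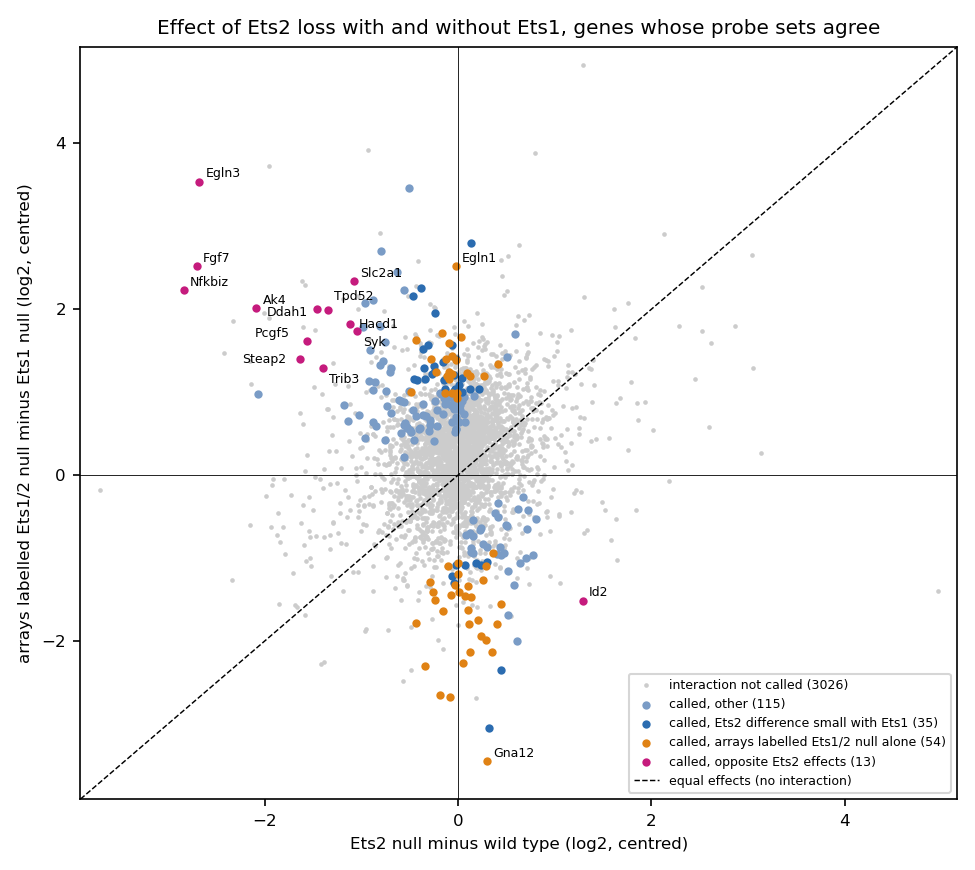
Each point is 1 of the 3243 agreeing genes; the x axis is Ets2 null minus wild type and the y axis is Ets1/2 null (as labelled) minus Ets1 null, both in log2 units of the brightest probe set, with colours for the classes of called genes and a dashed line where both differences are equal. In 30 plotted genes the x value is -1 or lower and the y value 1 or higher. The 12 of them that were also called are coloured as opposite, led by Egln3 at -2.68 and 3.54.

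The Ets2 difference itself was spread more widely in cells without Ets1 than in cells with it, with an SD across agreeing genes of 0.73 against 0.54. The plot of both Ets2 differences shows little relation between them: across the 3243 genes, which are not independent replicates, Pearson's r was 0.111 and Spearman's rho 0.153. These differences share no array, but both set Cre virus against egfp virus. Over all probe sets, 0.633% were called in Ets2 null against wild type and 35.4% in the labelled double null against Ets1 null. Of 198 agreeing genes with an Ets2 difference of at least 1 in cells with Ets1, 62 had one under 0.5 in cells without it. Of 536 genes with a difference of at least 1 in cells without Ets1, 334 had one under 0.5 in cells with it. In 82 genes both differences were at least 1 in size, and there 33 were higher in both, 15 lower in both, 30 lower with Ets1 present and higher without it, and 4 the reverse. The Ets1 difference, compared the same way with and without Ets2, was at least 1 in size in both backgrounds in 61 genes, with 44 of the same sign and 17 opposite (r 0.209, rho 0.132).

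The 217 called genes fell into groups by the brightest probe set. In 13 the Ets2 difference was at least 1 in size and of opposite sign in the 2 backgrounds (23 without Ets2 null array 3). In 54 neither single null differed from wild type by 0.5 while the labelled double null differed by at least 1, the arrangement by which redundancy is defined here. A difference particular to the arrays labelled double null gives the same arrangement, and it cannot be told apart from redundancy. In 35 the Ets2 difference was under 0.5 with Ets1 present and at least 1 without it, outside the 54; no called gene had the reverse. The last 115 fell between these definitions. Additive differences are not a class of called genes and are given at the end. These sizes are part of the definitions and are described, not tested. The arrays behind the interaction also chose the agreeing genes, and small differences agree more readily than large ones.

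Egln3, a gene of oxygen sensing, had the largest interaction of the opposite group and of all called genes. Cells sense oxygen through prolyl hydroxylases of the EGLN family, which mark the alpha subunits of hypoxia-inducible factor (HIF) for degradation. HIF that escapes binds a core of ACGTG and raises glucose transporters, glycolytic enzymes and some of the EGLN genes themselves. To show the letters beside the values, the 250 bases before the start site are given for 4 called members of the hypoxia and glycolysis list, chosen because Egln3 had the largest interaction, Slc2a1 was the next list member of the opposite group, Egln1 led the genes high in the labelled double null alone, and Pgk1 is the glycolytic enzyme gene with a pair of matches. They are RefSeq sequences of GRCm38.p6, read 5' to 3' along the gene, with ACGTG or its reverse complement CACGT in capitals. The Egln3 window is chr12:54203875-54204124 on the minus strand, Slc2a1 chr4:119108495-119108744 on the plus strand, Egln1 chr8:124949255-124949504 on the minus strand and Pgk1 chrX:106186850-106187099 on the plus strand.
Egln3: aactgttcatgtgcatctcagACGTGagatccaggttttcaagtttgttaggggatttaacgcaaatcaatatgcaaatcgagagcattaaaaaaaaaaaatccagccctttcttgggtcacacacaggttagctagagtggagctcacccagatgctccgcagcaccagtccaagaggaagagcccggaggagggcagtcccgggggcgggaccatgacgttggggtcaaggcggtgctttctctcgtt
Slc2a1: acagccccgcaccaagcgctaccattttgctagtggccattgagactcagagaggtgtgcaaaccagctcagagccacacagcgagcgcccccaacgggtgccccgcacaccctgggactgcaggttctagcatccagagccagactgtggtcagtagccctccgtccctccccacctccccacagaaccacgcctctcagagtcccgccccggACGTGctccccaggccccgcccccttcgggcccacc
Egln1: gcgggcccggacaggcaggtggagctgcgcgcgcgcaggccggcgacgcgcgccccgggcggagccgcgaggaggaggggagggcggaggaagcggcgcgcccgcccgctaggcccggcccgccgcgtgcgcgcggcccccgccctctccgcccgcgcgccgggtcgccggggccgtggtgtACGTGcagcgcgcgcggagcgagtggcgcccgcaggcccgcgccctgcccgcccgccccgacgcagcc
Pgk1: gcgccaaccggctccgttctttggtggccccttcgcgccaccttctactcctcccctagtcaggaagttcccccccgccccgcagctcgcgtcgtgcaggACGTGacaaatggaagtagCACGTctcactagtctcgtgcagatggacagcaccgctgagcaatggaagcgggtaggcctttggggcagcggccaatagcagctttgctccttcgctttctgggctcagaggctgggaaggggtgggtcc
A match to so short a core is a description of the letters and not a site of binding.

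Egln3 (probe sets 1418649_at and 1418648_at), a HIF prolyl hydroxylase that HIF itself induces, had wild-type values of -0.02, 0.81 and 0.72, Ets1 null values of -0.42, 1.15 and 0.08, Ets2 null values of -2.56, -1.74 and -2.21, and labelled double null values of 3.89 and 3.72. All Ets2 null arrays lay below every other array and both arrays labelled double null lay above, while wild type and Ets1 null overlapped. Egln3 fell with Ets2 loss in cells with Ets1 (-2.68 ± 0.4, adjusted p = 0.0347) and rose in cells labelled as having lost both, against Ets1 null (3.54 ± 0.45, adjusted p = 0.000605). Its interaction was 6.22 ± 0.6 (95% interval 4.87 to 7.57, adjusted p = 0.000386), and 6.05 by the second probe set. Slc2a1 (1434773_a_at and 1426599_a_at), the gene of the glucose transporter GLUT1, had wild-type values of 2.2, 1.99 and 2.88, Ets1 null values of 1.27, 2.21 and 1.96, Ets2 null values of 1.09, 1.38 and 1.37, and labelled double null values of 4.1 and 4.2. Its arrays labelled double null were again the highest of all and did not overlap any group. The Ets2 difference was -1.08 in cells with Ets1 (adjusted p = 0.0921), short of the threshold, and 2.34 in cells without it (adjusted p = 0.000833), an interaction of 3.42 ± 0.42 (adjusted p = 0.00122). Ak4 (1450387_s_at and 1421830_at), a mitochondrial adenylate kinase, had wild-type values of -0.02, 0.45 and 1.3, Ets1 null values of -0.74, 0.85 and 0.87, Ets2 null values of -1.76, -1.47 and -1.3, and labelled double null values of 2.68 and 2.01. Ets2 null lay below and the labelled double null above every other array, and the interaction was 4.1 ± 0.71 (adjusted p = 0.00525).

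**Figure D2:**
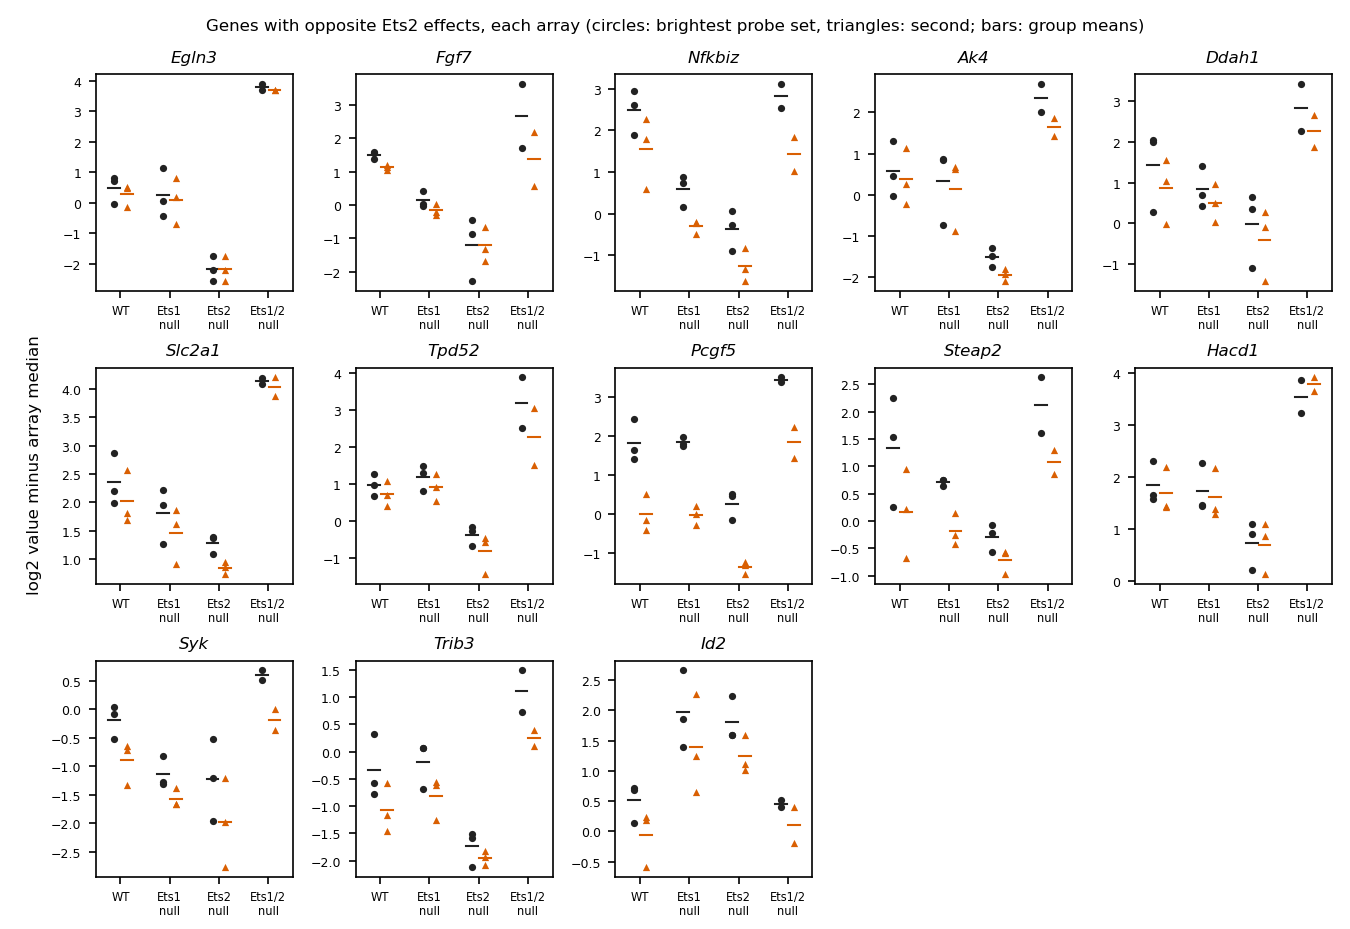
Each panel is 1 of the 13 genes with opposite Ets2 differences and plots the log2 value of every array minus its array median by group (circles for the brightest probe set, triangles for the second, bars for group means). In Egln3 the Ets2 null circles lie between -2.56 and -1.74 and the arrays labelled double null at 3.89 and 3.72, while Id2 has the reverse order.

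Fgf7 and Nfkbiz were lower in each single null and back at or above the wild-type range in the labelled double null. Fgf7 (1438405_at and 1422243_at), a secreted growth factor for epithelial cells, had wild-type values of 1.38, 1.55 and 1.58, Ets1 null values of -0.02, 0.42 and 0.02, Ets2 null values of -2.28, -0.46 and -0.86, and labelled double null values of 3.61 and 1.7. The single nulls lay below all wild-type arrays and Ets2 null below Ets1 null, and both arrays labelled double null lay above wild type, 1.70 only just. Its interaction was 5.22 ± 0.8 (adjusted p = 0.00319). Nfkbiz (1417483_at and 1448728_a_at), an inducible nuclear protein of the I-kappa-B family that steers NF-kappaB at inflammatory genes, had wild-type values of 2.6, 2.94 and 1.88, Ets1 null values of 0.87, 0.73 and 0.16, Ets2 null values of -0.89, 0.06 and -0.27, and labelled double null values of 2.53 and 3.1. Both single nulls lay below wild type, and the arrays labelled double null lay inside and just above its range. Nfkbiz fell in Ets2 null (-2.84 ± 0.34, adjusted p = 0.0267) and rose against Ets1 null in the labelled double null (2.23 ± 0.38, adjusted p = 0.00267), an interaction of 5.06 ± 0.51 (adjusted p = 0.000462). Egln3, Slc2a1, Ak4, Fgf7 and Nfkbiz kept their calls in all 20 alternative analyses.

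Other genes of the opposite group had smaller or less steady interactions. Ddah1, which breaks down an inhibitor of nitric oxide synthase, had wild-type values of 0.29, 2.04 and 1.99, Ets1 null values of 0.43, 0.7 and 1.42, Ets2 null values of 0.36, 0.66 and -1.09, and labelled double null values of 3.42 and 2.27. Ets2 null array 3 was the lowest and the other Ets2 null arrays overlapped wild type and Ets1 null. Its interaction of 3.46 ± 0.91 (adjusted p = 0.0284) lost its call in 8 of 20 alternatives. Pcgf5, the gene of a polycomb subunit, fell in Ets2 null (-1.56 ± 0.28, adjusted p = 0.0476) and rose against Ets1 null in the labelled double null (1.62 ± 0.31), with an interaction of 3.18 ± 0.41. Tpd52 had an interaction of 3.34 ± 0.52, the metalloreductase gene Steap2 3.03 ± 0.68 and the fatty acid elongation gene Hacd1 2.94 ± 0.5. Syk, the gene of a tyrosine kinase of immune receptor signalling, had wild-type values of 0.04, -0.08 and -0.52, Ets1 null values of -0.82, -1.31 and -1.27, Ets2 null values of -0.52, -1.2 and -1.96, and labelled double null values of 0.51 and 0.68. Both single nulls were low, the labelled double null was the highest group, and among the single nulls only Ets2 null array 1 reached the lowest wild-type value. The interaction of Syk was 2.78 ± 0.5, and that of Trib3, a stress-induced pseudokinase, 2.69 ± 0.53. Trib3 lost its call with no centring and with the male term. The 12 positive interactions of the opposite group ran from 2.69 to 6.22 with a median of 3.38.

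Id2 was the gene of the opposite group with the reverse order. It encodes a helix-loop-helix protein that lacks a DNA-binding region and holds its partners away from DNA. Id2 (1422537_a_at and 1435176_a_at) had wild-type values of 0.14, 0.71 and 0.69, Ets1 null values of 2.66, 1.85 and 1.39, Ets2 null values of 2.23, 1.59 and 1.6, and labelled double null values of 0.52 and 0.4. All 6 single-null arrays lay above all wild-type arrays, and the arrays labelled double null lay within the wild-type range. The difference from wild type was 1.46 in Ets1 null, 1.29 in Ets2 null and -0.05 in the labelled double null, and the interaction was -2.8 ± 0.49 (adjusted p = 0.00532), -2.59 by the second probe set. Against Ets1 null the labelled double null was lower, with a difference of -1.51 ± 0.36 (adjusted p = 0.0116). The interaction lost its call without labelled double null array 2 (adjusted p = 0.0606).

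Single nulls that moved the same way were looked at across all called genes. In 21 both single nulls differed from wild type by at least 0.5 in the same direction, lower in 20 and higher in Id2. In 8 of these the labelled double null was within 0.5 of wild type, among them Nfkbiz, Nfkbie, Id2 and Tead1, a DNA-binding partner of YAP. In 12 it lay at least 0.5 on the other side of wild type, among them Fgf7, Slc2a1, Syk, Plod2 and Nfkbia. Sema3e was the 1 gene that stayed on the same side. It encodes a semaphorin that repels endothelial cells through Plexin-D1, and it had wild-type values of 0.05, -1.35 and 0.68, Ets1 null values of -3.59, -3.47 and -3.64, Ets2 null values of -2.3, -1.93 and -2.59, and labelled double null values of -2.15 and -3.03. All null arrays lay below all wild-type arrays, and the labelled double null overlapped Ets2 null rather than lying at the sum of both losses. Its differences from wild type were -3.36, -2.07 and -2.38 in Ets1 null, Ets2 null and the labelled double null, and its interaction was 3.04 ± 0.69 (adjusted p = 0.0163). Its call was lost with the male term and without labelled double null array 1. Whether these arrays can read as low as the sum of both Sema3e losses was not tested. The differences from wild type share the wild-type arrays, so an array of wild type that is high lowers all 3 together. It also raises the interaction by which these genes were called, so low single nulls and positive calls are not independent.

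Genes that differed in the labelled double null alone were more often lower than higher: 31 had negative interactions (-3.74 to -0.99, median -1.53) and 23 positive ones (0.92 to 2.54, median 1.33). With no centring 32 of the 54 kept a call in both probe sets with the same sign, after quantile normalization 45, and with a term for male arrays 25. Egln1, the main HIF prolyl hydroxylase of most cells, had wild-type values of 1.28, 1.54 and 0.73, Ets1 null values of 1.08, 1.71 and 1.73, Ets2 null values of 1.4, 0.99 and 1.09, and labelled double null values of 3.76 and 4.29. The arrays labelled double null stood about 2 units above every other array, and the other groups overlapped. Egln1 rose against Ets1 null (2.52 ± 0.3, adjusted p = 0.00043), whereas its Ets2 difference in cells with Ets1 was -0.02 ± 0.27. Its interaction was 2.54 ± 0.4 (adjusted p = 0.00349), and 2.5 by the second probe set. Egln1 and Egln3 thus differed in the Ets2 null arrays, where Egln3 was low and Egln1 was not, and were both high in the labelled double null.

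**Figure D3:**
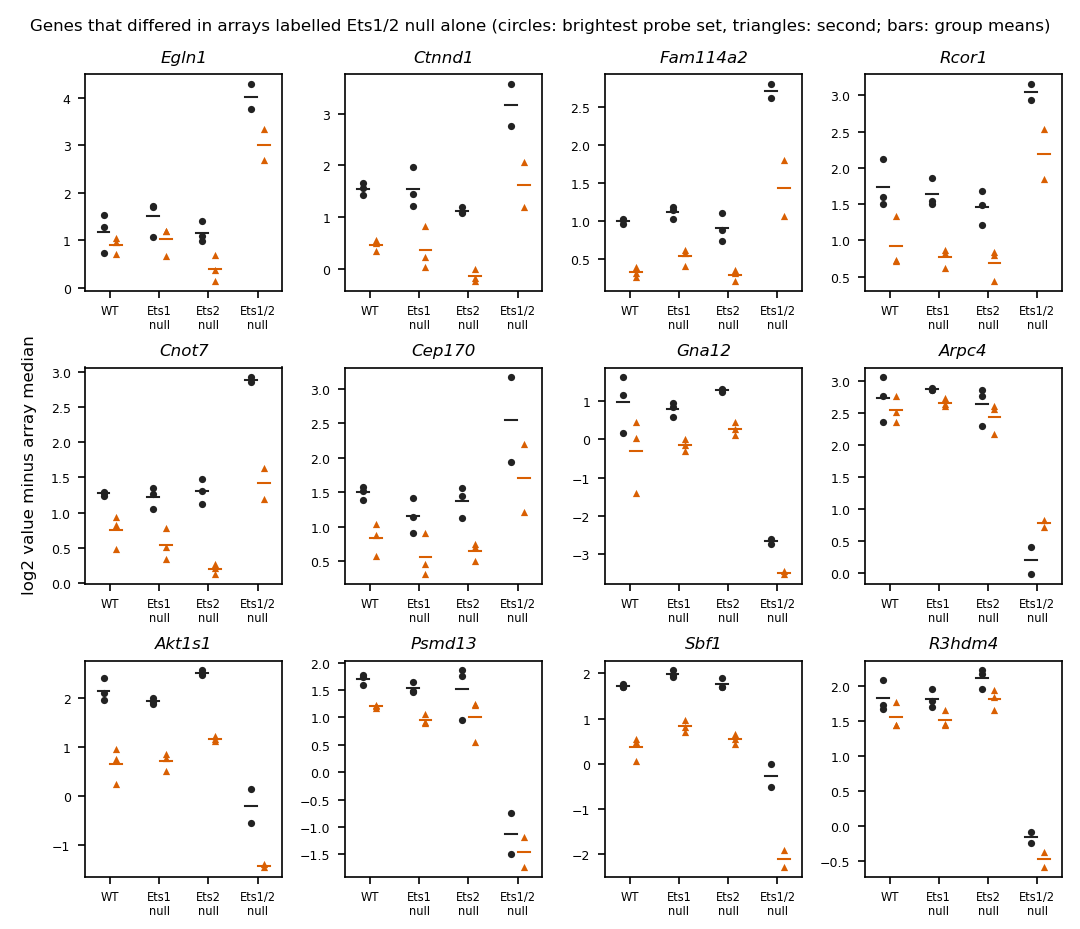
Each panel is 1 of 12 genes that differed in the labelled double null alone and plots the log2 value of every array minus its array median by group (circles for the brightest probe set, triangles for the second, bars for group means). By the circles, Egln1 reads 3.76 and 4.29 in that group against 0.73 to 1.73 in all others, and Gna12 reads -2.72 and -2.59 against 0.17 to 1.61.

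Ctnnd1, the gene of p120 catenin, which keeps cadherins at endothelial junctions, had wild-type values of 1.43, 1.56 and 1.66, Ets1 null values of 1.97, 1.44 and 1.21, Ets2 null values of 1.19, 1.07 and 1.1, and labelled double null values of 3.57 and 2.76. Both arrays labelled double null were the highest, and its interaction was 2.06 ± 0.36 (adjusted p = 0.0055). The interaction was 1.68 ± 0.3 for Rcor1, which encodes the scaffold of a histone demethylase complex, 1.64 ± 0.2 for the mRNA deadenylase gene Cnot7, 1.68 ± 0.19 for Fam114a2 and 1.52 ± 0.43 for the centrosomal gene Cep170. Fam114a2 lost its call in 15 and Cep170 in 14 of 20 alternatives, Ctnnd1 and Rcor1 with no centring and with the male term, and Cnot7 with no centring. The respiratory chain genes Cox5b (1.0 ± 0.2) and Uqcrb (0.94 ± 0.17) were also in this group. Uqcrb lost its call in 12 alternatives, and Cox5b in 3 (no centring, quantile normalization and the male term), where it read as low as 0.18.

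The largest negative interaction of all called genes was that of Gna12, the gene of the G protein subunit G-alpha-12, which signals to RhoA and the cytoskeleton. It had wild-type values of 1.61, 1.15 and 0.17, Ets1 null values of 0.85, 0.94 and 0.59, Ets2 null values of 1.24, 1.29 and 1.31, and labelled double null values of -2.72 and -2.59. The arrays labelled double null lay far below all others, and wild type and both single nulls overlapped. Gna12 fell against Ets1 null (-3.44 ± 0.34, adjusted p = 0.000177), and its interaction was -3.74 ± 0.46 (adjusted p = 0.00117) with -3.9 by the second probe set. Arpc4, a subunit of the actin-branching Arp2/3 complex, had wild-type values of 3.05, 2.76 and 2.35, Ets1 null values of 2.88, 2.85 and 2.86, Ets2 null values of 2.85, 2.76 and 2.29, and labelled double null values of 0.41 and -0.02. Again only the arrays labelled double null stood apart, with an interaction of -2.58 ± 0.33 (adjusted p = 0.00137). Psmd13, a subunit of the proteasome cap, had wild-type values of 1.77, 1.74 and 1.6, Ets1 null values of 1.47, 1.49 and 1.64, Ets2 null values of 1.86, 1.75 and 0.95, and labelled double null values of -0.74 and -1.5. Ets2 null array 3 was the lowest outside the labelled double null, which was below it by over 1 unit. The interaction of Psmd13 was -2.47 ± 0.39 (adjusted p = 0.00363).

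The remaining genes named from this group were Akt1s1 (-2.48 ± 0.28), which encodes an Akt substrate bound to mTOR complex 1, Sbf1 (-2.31 ± 0.22), a member of the myotubularin family, and R3hdm4 (-2.28 ± 0.23). Bad, which promotes cell death by binding survival proteins of the Bcl2 family, had wild-type values of 1.78, 1.76 and 1.89, Ets1 null values of 1.86, 1.82 and 1.65, Ets2 null values of 1.74, 1.68 and 2.01, and labelled double null values of 0.81 and 0.64. The labelled double null was the lowest group without overlap, and the interaction was -1.06 ± 0.2 (adjusted p = 0.00752). Egln1, Gna12, Arpc4, Akt1s1, Psmd13, Sbf1, R3hdm4 and Bad kept their calls in all 20 alternatives.

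Of the 35 genes with an Ets2 difference of at least 1 in cells without Ets1 and under 0.5 in cells with it, 26 had positive interactions (0.82 to 2.67, median 1.5) and 9 negative ones (-3.37 to -1.07, median -1.25). Cd99, an adhesion protein at leukocyte and endothelial contacts, had wild-type values of 2.85, 3.34 and 2.05, Ets1 null values of 3.41, 3.36 and 3.2, Ets2 null values of 2.88, 3.3 and 3.02, and labelled double null values of -0.26 and 0.81. Only the arrays labelled double null stood apart, at the bottom, and the interaction was -3.37 ± 0.52 (adjusted p = 0.00333). Otub1, a deubiquitinase, had wild-type values of 1.77, 1.33 and 1.61, Ets1 null values of 1.9, 2.11 and 2.31, Ets2 null values of 2.02, 2.05 and 1.96, and labelled double null values of -0.29 and -0.19. The single nulls lay above wild type and the labelled double null lay far below, with an interaction of -2.79 ± 0.23 (adjusted p = 0.000211). Fosl2, a partner of Jun in AP-1, had differences from wild type of -1.03 in Ets1 null, 0.13 in Ets2 null and 1.77 in the labelled double null, and an interaction of 2.67 ± 0.59 (adjusted p = 0.0153), whose call was lost with the male term. Ets1 itself met this definition, as its values above show.

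The 115 called genes between the definitions had 83 positive interactions (0.56 to 3.97, median 1.11) and 32 negative ones (-2.61 to -0.7, median -1.11). Rora, a nuclear receptor of the clock and of lipid metabolism, had wild-type values of 0.0, -0.17 and -1.18, Ets1 null values of -2.63, -2.39 and -2.51, Ets2 null values of -2.36, -0.01 and -0.49, and labelled double null values of 0.48 and 1.42. Ets1 null was low in all 3 arrays, the Ets2 null arrays spread from near Ets1 null to wild type, and the labelled double null was the highest. Its interaction of 3.97 ± 0.86 (adjusted p = 0.0135) lost its call in 10 of 20 alternatives. Ero1a, which reoxidizes disulfide isomerase, had an interaction of 3.51 ± 0.54, and the collagen lysyl hydroxylase gene Plod2 3.07 ± 0.64. Pgm1, an enzyme of glycogen metabolism, had 2.99 ± 0.58, the scaffold gene Homer1 2.79 ± 0.46 and the chromatin reader gene Mllt3 3.04 ± 0.77, whose call was lost in 8 alternatives. Ero1a lost its call with the male term and Pgm1 with that term and with no centring.

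The negative side of these 115 was led by Cbx6, a polycomb reader of methylated histone H3, which had wild-type values of 2.9, 3.1 and 2.7, Ets1 null values of 2.96, 2.91 and 3.45, Ets2 null values of 3.56, 3.5 and 3.48, and labelled double null values of 1.02 and 1.19. Ets2 null lay above wild type without overlap and the labelled double null lay below all others, with an interaction of -2.61 ± 0.26 (adjusted p = 0.00042). Smad5, a transducer of BMP signals, had wild-type values of 0.85, 0.3 and 0.89, Ets1 null values of 0.46, 0.52 and 0.67, Ets2 null values of 1.07, 1.14 and 1.39, and labelled double null values of -1.05 and -1.21. It showed the same order with overlap only between wild type and Ets1 null, and its interaction was -2.2 ± 0.27 (adjusted p = 0.00113). The heme transporter gene Slc48a1 had -1.91 ± 0.43 and Gna11, another G protein subunit gene, -1.75 ± 0.29. Gna11 lost its call in 13 of 20 alternatives, and Slc48a1 with the male term.

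Few genes met the definition of additivity at this precision. A 95% interval of the interaction within -1 to 1 was required in both probe sets, and 468 agreeing genes met it, while the median interval was 1.42 wide. The sum of the single-null differences was at least 1 in size in 372 agreeing genes, and only Lrch1, Fundc1 and Bbs10 met both conditions. Lrch1 had wild-type values of -0.86, -0.05 and -1.01, Ets1 null values of 0.39, 0.34 and 0.34, Ets2 null values of -0.09, -0.03 and 0.09, and labelled double null values of 1.34 and 1.07. Ets1 null lay above all wild-type arrays, Ets2 null overlapped wild-type array 2, and the labelled double null lay above all of them. The differences from wild type were 1.0, 0.63 and 1.85 in Ets1 null, Ets2 null and the labelled double null, with an interaction of 0.22 (interval -0.55 to 0.99). For Fundc1, a mitophagy receptor, they were 0.44, 0.72 and 1.3, with an interaction of 0.13 (interval -0.61 to 0.88). For Bbs10, a chaperonin-like gene of cilia, they were 0.31, 0.89 and 0.78, with an interaction of -0.42 ± 0.26. Leaving out single arrays gave between 0 and 10 additive genes, so their number was not stable.

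Of the gene lists, hypoxia and glycolysis had the highest median interaction, 2.01 over 38 of 45 listed genes on the table, against 0.25 over all genes. By the brightest probe set 36 of 38 were above 0, against 6916 of all 11015 genes, and 28 were called positive and 0 negative, against 9.84% and 6.45% of all genes. The list's median Ets2 difference was -0.67 in cells with Ets1 and 1.5 in cells without it. The arrays labelled double null had list means of 3.03 and 3.11 and lay above all others, and the Ets2 null arrays reached 0.55 to 0.97, Ets1 null 0.91 to 1.63 and wild type 1.33 to 1.7. The count was 21 positive and 2 negative with no centring (median 1.19), where 166 of all genes were called positive and 3313 negative, 27 and 0 after quantile normalization (1.81), and 19 and 0 in the fit with male arrays as a term (1.88). The list was put together with results of these arrays known, so its direction is not independent evidence.

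**Figure D4:**
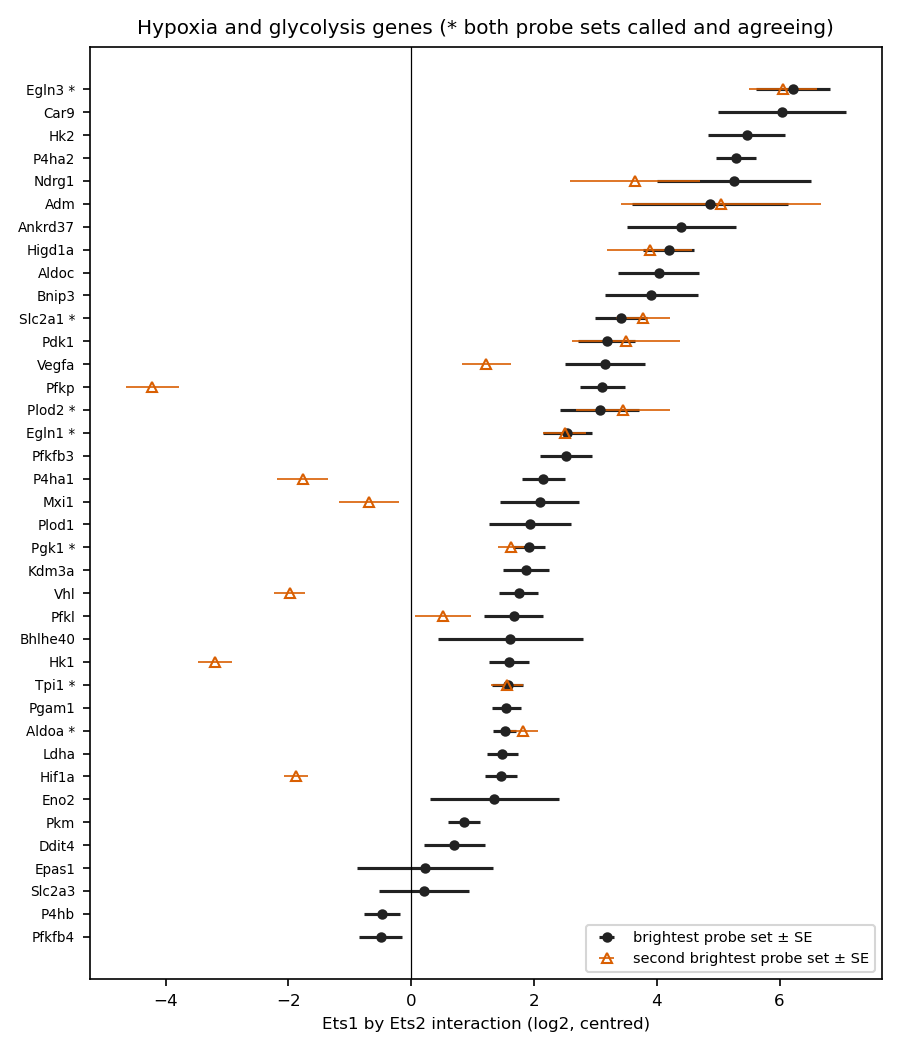
The interaction (log2, x axis) of the 38 hypoxia and glycolysis genes is plotted for the brightest probe set (circles) and, where there is one, the second brightest (triangles), with bars of 1 SE and a star at the 7 genes called and agreeing in both. Egln3 is the highest at 6.22 and 6.05, and 6 genes, among them Pfkp at 3.11 and -4.22, have a second probe set of the opposite sign.

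Reading each gene a second time thinned this list. Of its 19 genes with at least 2 probe sets, 8 agreed, and 7 of these were called in both: Egln1, Egln3, Plod2 and Slc2a1 and the glycolytic enzyme genes Aldoa, Pgk1 and Tpi1. Their agreement uses the same arrays as the interaction, so the 7 of 8 is a description. Of the 19 second probe sets 13 were above 0, and the 19 genes with 1 probe set have no second reading. Aldoa, fructose-bisphosphate aldolase A, had an interaction of 1.52 ± 0.19 (adjusted p = 0.00138). Pgk1, which makes the first ATP of glycolysis, had wild-type values of 4.96, 4.98 and 5.21, Ets1 null values of 4.73, 5.25 and 5.07, Ets2 null values of 4.34, 4.26 and 3.93, and labelled double null values of 6.05 and 6.03. Ets2 null was the lowest group and the labelled double null the highest, both without overlap, and the interaction was 1.91 ± 0.26 (adjusted p = 0.00171). For Tpi1, triosephosphate isomerase, it was 1.57 ± 0.25 (adjusted p = 0.0041). In 6 genes the probe sets had opposite signs: Pfkp (3.11 and -4.22), Hk1 (1.59 and -3.2), P4ha1 (2.15 and -1.77), Vhl (1.75 and -1.98), Hif1a (1.46 and -1.88) and Mxi1. For these genes the arrays give no single direction, and the plot of the list by probe set shows both readings.

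Inflammatory genes and immediate-early genes of the ERK cascade were next. Of 23 inflammation and adhesion genes, 10 were called positive and 1 negative by the brightest probe set, against 9.84% and 6.45% of all genes (median 1.75), and Nfkbia, Nfkbie and Nfkbiz, all of the I-kappa-B family that restrains or redirects NF-kappaB, were called in both. The positive count was 6 without wild-type array 2, Ets1 null array 2, Ets2 null array 1 or labelled double null array 1. The median was 0.86 without wild-type array 1 (8 and 1) and 2.59 in the fit with male arrays as a term (11 and 0). Nfkbia had wild-type values of 4.67, 4.22 and 3.05, Ets1 null values of 2.94, 3.38 and 3.28, Ets2 null values of 2.75, 3.28 and 2.96, and labelled double null values of 4.89 and 5.08. Wild-type array 3 lay with the single nulls, and the labelled double null lay above all arrays. Its interaction of 2.77 ± 0.54 (adjusted p = 0.00897) lost its call in 7 of 20 alternatives, and that of Nfkbie, 1.75 ± 0.45, in 14 of 19. Of 32 immediate-early genes 9 were called positive and 0 negative (median 1.25), 6 and 2 with no centring (0.43) and 4 and 0 with the male term (1.34). Of these genes Fosl2 and the nuclear receptor gene Nr4a2 (2.13 ± 0.4) were called in both probe sets, and Nr4a2 lost its call with no centring.

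**Figure D5:**
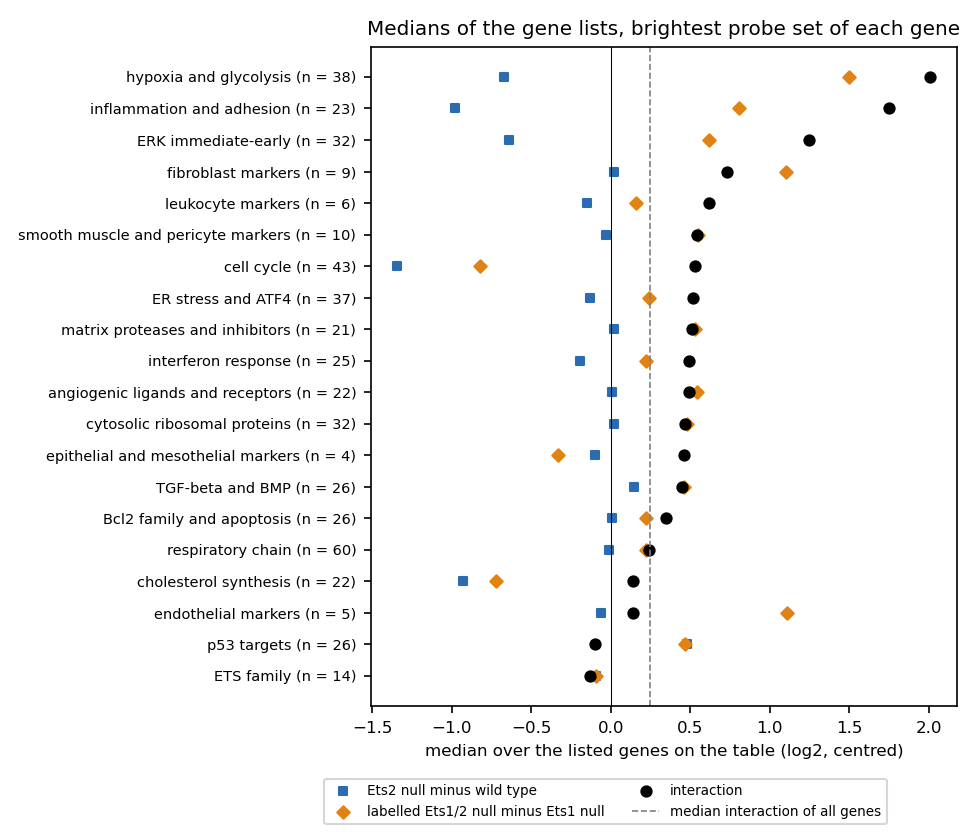
For each gene list the medians over its genes (log2, brightest probe sets) are plotted for the Ets2 difference with Ets1 (squares), the Ets2 difference without Ets1 (diamonds) and the interaction (circles), with the all-gene median interaction of 0.25 as a dashed line. The interaction median of hypoxia and glycolysis is highest at 2.01, followed by inflammation and adhesion at 1.75 and ERK immediate-early genes at 1.25.

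Other lists had median interactions nearer to the 0.25 of all genes, of which 9.84% were called positive and 6.45% negative. Of 32 cytosolic ribosomal protein genes 14 were called positive and 0 negative under the centring used (median 0.47), but 0 and 10 with no centring (median -0.35) and 2 and 1 after quantile normalization (0.02), so the list has no settled direction; Rpl22 (0.71 ± 0.19) and Rpl35 (0.57 ± 0.16) turned to -0.11 and -0.25 with no centring. These genes lost their call in a further 11 and 14 of 20 alternatives, and the 14 positive calls of the list became 5 when Ets1 null array 2 or 3 or Ets2 null array 1 or 2 was left out, and 1 with the male term. Of 60 respiratory chain genes 5 were positive and 4 negative (median 0.24), and with no centring, which turned all genes to 166 positive and 3313 negative, 0 and 25. Of 43 cell cycle genes limma called 0 in either direction, with 1 at an unadjusted p under 0.05 (median 0.53), and without Ets2 null array 3 the median was -0.84 with 0 positive and 3 negative. In 22 cholesterol synthesis genes the Ets2 difference had a median of -0.93 with Ets1 present and -0.72 without it, and the median interaction was 0.14 with 2 positive, 1 negative and 0 called in both probe sets.

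Signalling lists had calls in both directions, beside 9.84% positive and 6.45% negative over all genes. Of 26 TGF-beta and BMP genes 4 were positive and 3 negative (median 0.45; -0.37 with no centring and -0.4 by the mean of both probe sets). The BMP transducers Smad1 (1.09 ± 0.24) and Smad5 (-2.2 ± 0.27) were called in both probe sets with opposite signs, and so was Id2, a target of that pathway. Smad1 lost its call with no centring and with the male term, reading as low as 0.27. Of 37 ER stress and ATF4 genes 5 were positive and 2 negative (median 0.52; -0.3 with no centring), with Trib3 and, on the negative side, the tryptophan tRNA synthetase gene Wars (-1.16 ± 0.27) called in both; Wars lost its call with the male term. Of 26 Bcl2 family and apoptosis genes 1 was positive and 2 negative (median 0.35), of 26 p53 targets 1 and 1 (median -0.1), of 14 ETS family genes 1 and 1 (median -0.13), of 22 angiogenic ligands and receptors 2 and 2 (median 0.49), of 21 matrix protease and inhibitor genes 1 and 0 (median 0.51), and of 25 interferon response genes 0 and 0, with 4 at an unadjusted p under 0.05 (median 0.49).

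Markers of other cell types were read beside these groups. By limma 0 of the 5 endothelial markers, 0 of 10 smooth muscle and pericyte markers and 0 of 4 epithelial and mesothelial markers were called by the brightest probe set, with 0, 2 and 0 at an unadjusted p under 0.05. Of 9 fibroblast markers 8 were above 0 (median 0.73), from Dpt at -2.34 to Col1a1 at 3.24. Col1a1 was the 1 called by the brightest probe set and was not called in both. With no centring 4 of the 9 were above 0, with 1 called positive and 1 negative. Of 6 leukocyte markers 2 were called positive by the brightest probe set, 0 in both. With no centring the leukocyte count was 0 positive and 1 negative, so this list has no settled direction. The mean of the 4 epithelial and mesothelial markers was highest in Ets1 null (0.69 to 1.11) and the labelled double null (0.54 and 0.6), low in Ets2 null (-1.1 to -0.73) and spread in wild type (-1.77, -0.77 and 0.67). This was not shared by all 4: Ets1 null minus wild type was 3.34 for Krt19 and 3.05 for Msln but -0.26 for Epcam and 0.1 for Krt8, and Ets2 null minus wild type was -2.25 for Msln, -0.4 for Krt8, 0.19 for Epcam and 1.09 for Krt19. Their part in any interaction, and that of other cell types, was not tested, and in bulk RNA fewer cells of a type and less RNA per cell cannot be told apart.

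The promoter letters were counted over the called genes. The core ACGTG, on either strand, lay in 16.6% of 32851 promoter windows of 250 bases. The other shares count genes, each by any of its windows. The core lay in 25.4% of the 8921 genes on the arrays that had a promoter in the RefSeq table. It lay in 25.8% of the 2644 agreeing genes that had one. It lay in 20 of 33 hypoxia and glycolysis genes (60.6%), 5 of 11 genes of the opposite group (45.5%), 28.3% of 46 genes that differed in the labelled double null alone, 31.9% of 116 called positive and 19% of 58 called negative. The hypoxia list was put together from known HIF targets. The letters CCGGAA, a stricter match than the GGAA core of ETS sites, lay on either strand in 12% of all windows. By gene they lay in 25.9% of the genes on the arrays and 28.4% of the agreeing genes. They lay in 24.1% of those called positive and 24.1% of those called negative. Of those that differed in the labelled double null alone 26.1% held them, and 0 of 11 of the opposite group. No match says only that these letters are not in the window.

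The second probe set set the limit of these readings. Of the 4785 genes with at least 2 probe sets, 1738 (36.3%) had interactions of opposite sign in the brightest pair. Across these genes the correlation between both probe sets was 0.81 for Ets1 null minus wild type and 0.783 for Ets2 null minus wild type, and 0.389 for labelled double null minus wild type, over genes that are not independent. The interaction had a correlation of 0.495 and a median of 0.29 by the brightest and 0.07 by the second probe set. Agreement varied little with brightness, at 69.6%, 65.7% and 68% of genes from the dimmest to the brightest of 3 equal groups. A further 49 genes were called in both probe sets but did not agree. The called genes just inside the limit of 1 were Atp7a (0.977), Ankrd28 (0.975) and Cnot7 (0.944), and those just outside were Zc3hav1 (1.001), Orc4 (1.006) and Bod1l (1.017).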

How the data were processed

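The deposited values are log2 expression per probe set, made by the authors with RMA per the submitters' processing notes; for its version and the probe annotation, the sources used here give nothing. Array medians that differ by group were kept in the deposited log2 values. Of 20523 probe sets, 18824 had 1 gene symbol, 549 several and 1150 none. Only those with 1 symbol were named. Replicate 3 of Ets1/2 null was left out (11 arrays in the fit, 7 residual degrees of freedom).

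Centring subtracted from every array its own median of all probe set values. limma 3.58.1 in R 4.3.3 (lmFit and eBayes, 1 mean per group, two-sided) gave differences, standard errors (SE) and p-values adjusted by the Benjamini-Hochberg method, over the brightest probe sets of 11015 genes for counts by the brightest probe set and over all 20523 probe sets for classes and for the p of each named gene. limma's intervals are at 95%. The same steps, after centring, were tested on simulated data. These had independent noise in each probe set, so they say nothing about the centring or about probe sets that disagree. Plots were drawn with matplotlib 3.10.9 after pandas 2.3.3. Promoter letters were searched on both strands.

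Genes named are the largest positive and negative interactions of each class (6 each) among called genes above the median of all genes in their brightest group, up to 4 additive genes per sign, Ets1, Ets2, and up to 4 agreeing members per list. Other genes were named after their values were seen, among them Tpd52, Pcgf5, Steap2, Hacd1, Syk, Tead1 and the hypoxia genes with disagreeing probe sets. Members and lists were chosen with earlier results of these data known. Replicate numbers did not pair the arrays: the correlation of deviations of same-numbered arrays from their group means was -0.31 to 0.1 over 15 pairs, 0 of them above 0.1. Sex was read from Xist and Eif2s3y. Alternatives changed the centring, normalization, agreement limit, probe set rule, dim-gene filter, sex and replicate terms, array weights, the third column, and left out each array. Arrays limit precision by their number.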

Additional observations from a re-analysis of the deposited data

Results flagged for a closer look

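In these genes the Ets2 difference itself differed between arrays labelled with and without Ets1. The test was limma's, of the interaction, in both probe sets (adjusted p under 0.05). All values are log2 interactions of the brightest probe set. All rest on the 2 arrays labelled double null, whose Ets1 signal goes against the label by its 2 brightest probe sets but not by another. A further Ets1 probe set shows no loss against wild type in them. The largest positive values on the hypoxia and glycolysis list were Egln3 6.22, Slc2a1 3.42, Plod2 3.07 and Egln1 2.54. Aldoa, Pgk1 and Tpi1 of that list were also called positive in both probe sets, with the values given above. In 6 other genes of that list the probe sets had opposite signs. On the inflammation and immediate-early lists they were Nfkbiz 5.06, Nfkbia 2.77, Fosl2 2.67, Nr4a2 2.13 and Nfkbie 1.75. The other positive values were Fgf7 5.22, Ak4 4.1, Rora 3.97, Ero1a 3.51, Sema3e 3.04, Pgm1 2.99, Ddah1 3.46, Mllt3 3.04, Homer1 2.79, Trib3 2.69, Ets1 2.64, Ctnnd1 2.06, Fam114a2 1.68, Rcor1 1.68, Cnot7 1.64, Cep170 1.52, Smad1 1.09, Cox5b 1, Uqcrb 0.94, Rpl22 0.71 and Rpl35 0.57. Negative values were Gna12 -3.74, Cd99 -3.37, Id2 -2.8, Otub1 -2.79, Cbx6 -2.61, Arpc4 -2.58, Akt1s1 -2.48, Psmd13 -2.47, Sbf1 -2.31, R3hdm4 -2.28, Smad5 -2.2, Slc48a1 -1.91, Gna11 -1.75, Wars -1.16 and Bad -1.06. The calls of Fam114a2, Cep170, Rpl35, Nfkbie, Gna11, Uqcrb, Rpl22, Rora, Ddah1, Mllt3 and Nfkbia were lost in 7 to 15 alternative analyses. Rpl22 and Rpl35 also changed sign with no centring. The other genes listed here with a value lost their call in 3 alternatives or fewer. The cause of these differences was not tested.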

How the results depend on the processing

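Of the 1795 genes called, no centring gave 3479, the replicate block 1130, the male term 688 and all 12 columns 2892. Agreeing genes called positive and negative (144 and 73) were 22 and 559 with no centring, 88 and 89 after quantile normalization, 271 and 129 by the mean of both probe sets, 99 and 43 with agreement within 0.5, 90 and 54 with the replicate block, whose numbers do not pair the arrays, 44 and 40 with the male term, 225 and 96 with array weights, and 288 and 102 with all 12 columns. The opposite group (13) held 8 with agreement within 0.5, 28 with array weights and 20 with all columns. The agreeing genes changed in the double null alone (54) numbered 259 with no centring, 96 by the mean of both, 33 with agreement within 0.5, 28 with the male term, 94 with array weights and 89 with all columns. Additive genes (3) numbered 14 by the mean of both, 1 with agreement within 0.5, 1 with the replicate block, 5 with array weights and 10 with all columns. The cause of these moves was not tested, beyond the doubled column in all 12. Leaving out 1 array at a time gave 1015 (without Ets1 null array 2) to 1858 genes called, 67 to 164 positive, 47 to 87 negative, 10 to 23 opposite, 38 to 73 alone and 0 to 10 additive. Genes called also fell past 1.5 times without Ets1 null array 3 (1029), Ets2 null arrays 1 and 2 (1107 and 1130) and labelled double null array 1 (1122).

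Some named interactions changed sign; of these only Rpl22 and Rpl35 were called in the reported analysis. With no centring they were Lrch1 -0.6, Fundc1 -0.69, Bcl2l11 -0.09, Cycs -0.48, Tigar -0.55, Adam15 -0.75, B2m -0.17, Rpl22 -0.11, Rpl35 -0.25, Rps7 -0.03 and Rps18 -0.19. After quantile normalization Fundc1 read -0.13 and Adam15 -0.16, and by the mean of both probe sets -0.05 and -0.43. Fabp4 read 0.06 with the replicate block. With the male term Lrch1 read 0, Fundc1 -0.17, Cflar 0.01 and Eng 0.14, and with array weights Mmp2 0.27, Timp2 0 and Cspg4 0.1. Leaving out 1 array at a time, the values ran over both signs: Trim25 -0.4 to 1.98, Cspg4 -1.08 to 0.25, Lrch1 -0.08 to 0.4, Fabp4 -2.64 to 1.64, Fundc1 -0.04 to 0.32, Adam15 -0.34 to 0.49, Mcm6 -0.2 to 1.72, Mmp2 -1.2 to 0.19, Cyp51 -0.25 to 2.55, Cycs -0.24 to 0.92, Selp -0.17 to 4.47 and Cdc20 -3.02 to 1.27.

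The labelled double null had only 2 arrays, which go against their label in Ets1 by its 2 brightest probe sets but not by another. A further Ets1 probe set shows no loss against wild type in them. The Ets2 null arrays were all male. The values used carry no background or detection call, so how far low signal limits an interaction is unknown.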
